A study of Mus musculus with 4 samples.

Results

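Transcripts of 9 immune checkpoint genes were followed through the hepatic immune cells of exercised and sedentary mice. The set held 6 receptors of T and NK cells (Pdcd1, Lag3, Havcr2, Tigit, Ctla4 and Cd160), the nuclear factor Tox, and both PD-1 ligands, Cd274 and Pdcd1lg2. They were chosen by gene symbol, and all 9 were found among the 31053 genes of the matrix. The study compared livers in a model of colorectal cancer metastasis promoted by surgical stress, in which some mice had exercised before surgery. There were 2 exercised libraries (Ex, named PEx in the protocol) and 2 sedentary libraries (Sed). Every library came from male mice, labelled as aged 8 weeks and killed 3 weeks after the injection of MC38 cells, a colon carcinoma line of the mouse. No strain, exercise schedule or animal number is given in the labels, so the p-values measure the spread between these libraries, which may come from pooled or single animals. Non-parenchymal cells were enriched on CD45 beads to a stated purity above 90%, and 10x 3' libraries were made from them.

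Most checkpoint receptors hold back lymphocytes that have been activated, though not every one does so in every cell type. The product of Pdcd1, PD-1, recruits phosphatases to the antigen receptor when it meets PD-L1 (from Cd274) or PD-L2 (from Pdcd1lg2) on a neighbouring cell. T cells that meet antigen without end, as in tumours, keep several of these receptors together and switch on Tox, which holds them in the state called exhaustion. Regulatory T cells carry CTLA-4 and other receptors as part of their normal make-up, NK cells and type 1 innate lymphoid cells (ILC1) carry CD160, and interferon gamma raises PD-L1 on myeloid cells.

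The 4 libraries held 28525 barcoded cells, of which 23840 were kept: 5763 in Ex 1, 4097 in Ex 2, 6839 in Sed 1 and 7141 in Sed 2. Medians were 3749 and 3701 UMIs per cell in Ex, against 3286 and 3286 in Sed, and the median mitochondrial share was 3.92% and 4.36% in Ex, against 2.61% and 2.95% in Sed. A total of 166 cells carried a barcode sequence found in more than 1 library, and they were kept as separate cells. Each barcode was tied to its library through the number behind it, read as the order L1 to L4 of the library names, which is a limit of every comparison between Ex and Sed. Cell types were named from marker genes after clustering without the 9 genes, and carry the ending -like. The kept cells included 3284 T-like and 970 NK-like or ILC1-like cells. Levels are in CPM, the UMIs of a gene summed over the cells of a type in a library and scaled to a fixed total. In such sums a smaller share of expressing cells and less RNA per cell cannot be told apart, and levels are compared within a gene, never between genes.

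Start regions are shown for 3 genes on which the results turn: the receptors Pdcd1 and Havcr2, which were lower together in Ex T-like cells, and the ligand Cd274. Each line holds the 250 bases before the RefSeq gene start on assembly GRCm38.p6, 5′ to 3′ on the strand of the gene: chr1:94052554-94052803 (minus strand) for Pdcd1, chr11:46454681-46454930 (plus) for Havcr2 and chr19:29367188-29367437 (plus) for Cd274. Capitals mark the NFAT core GGAAA on either strand in Pdcd1 and Cd274 and the AP-1 motif TGANTCA in Havcr2. NFAT and AP-1 are the nuclear factors that antigen receptor signalling activates.
Pdcd1: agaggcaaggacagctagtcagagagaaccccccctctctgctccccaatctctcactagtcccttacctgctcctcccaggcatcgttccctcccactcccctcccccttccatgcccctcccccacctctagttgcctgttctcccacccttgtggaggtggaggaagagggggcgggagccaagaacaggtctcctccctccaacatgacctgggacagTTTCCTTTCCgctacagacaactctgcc
Havcr2: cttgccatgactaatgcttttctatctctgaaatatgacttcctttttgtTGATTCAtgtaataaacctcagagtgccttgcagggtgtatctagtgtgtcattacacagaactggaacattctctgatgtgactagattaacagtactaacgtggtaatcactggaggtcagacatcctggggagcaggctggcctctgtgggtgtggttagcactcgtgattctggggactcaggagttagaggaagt
Cd274: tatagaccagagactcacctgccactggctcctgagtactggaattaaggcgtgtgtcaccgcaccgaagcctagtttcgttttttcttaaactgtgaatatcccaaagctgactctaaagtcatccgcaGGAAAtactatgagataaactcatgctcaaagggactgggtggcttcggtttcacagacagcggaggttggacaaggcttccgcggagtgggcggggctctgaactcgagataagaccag
In Pdcd1 a pair of adjoining NFAT cores lay 28 and 23 bases before the start. The AP-1 motif of Havcr2 lay 200 bases before its start, and the NFAT core of Cd274 lay 120 bases before. Of 8 such windows for 7 of the genes, 6 held the NFAT core, and so did 55.6% of all 32851 windows in the table. The AP-1 motif was in 1 of the 8 and in 6.75% of all, and the interferon gamma motif GAS (TTCNNNGAA) was in 1, that of Cd160, and in 7.02% of all. The interferon motif ISRE, in 2.98% of all windows, and the NR4A motif NBRE (AAAGGTCA), in 1.34%, were in none of the 8. These are matches of letters in 250 bases and say nothing of binding.

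Each receptor had its own order of cell types. Pdcd1 (chr1:94038305-94052553, minus strand, mm10 with GENCODE vM21, as for the other positions) was found in T-like cells above all, which held 89.7% of its 1387 UMIs. Types with at least 10 cells in every library are ranked here and below. Among them its level was highest in cycling lymphocytes, at 119 ± 18.2 CPM (SD, n = 4 libraries, as for all such means here unless stated). Gamma-delta T-like cells at 98.3 ± 67.7 CPM and Treg-like cells at 86.3 ± 43.8 CPM followed. The ranges of these 3 overlapped, and the Treg-like range lay above that of the next ranked type, migratory dendritic cells, at 17.1 CPM. Effector or exhausted CD8 T-like cells were not ranked, with 5 and 9 cells in Ex. They held 33.7% of the Pdcd1 UMIs, and their Sed mean was 186 ± 12.5 CPM (n = 2 libraries). Among B-like cells 0.199% and 0% had a Pdcd1 UMI in Ex and 0% and 0% in Sed, at medians of 1626 to 2719 UMIs per cell, which is the level that free RNA can give.

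Lag3 (chr6:124904361-124911705, minus strand), whose product binds MHC class II, was highest in plasmacytoid dendritic cells, at 278 ± 41.6 CPM. Its values there were 307 and 221 CPM in Ex, against 311 and 271 CPM in Sed. That range stood apart from the next ranked type, Treg-like cells at 109 ± 82.5 CPM. The pDC-like cells, 89 and 49 cells in Ex and 17 and 39 in Sed, held 15.9% of all 1970 Lag3 UMIs. Effector or exhausted CD8 cells, which were not ranked, held 28.5% of them, with a Sed mean of 219 ± 9.06 CPM (n = 2 libraries). Havcr2 (chr11:46454935-46481255, plus strand), which codes for TIM-3, was highest in type 1 conventional dendritic cells, at 123 ± 32.8 CPM, with 87.0 and 110 CPM in Ex, against 132 and 164 CPM in Sed. No other ranked type reached that range. Cycling lymphocytes had 47.2 ± 18.4 CPM, other macrophages 46.8 ± 16.3 CPM and Treg-like cells 36.8 ± 7.97 CPM, with overlapping ranges. Type 2 conventional dendritic cells were not ranked, with 2 cells in Sed 1 and 67 in Sed 2. Their mean Havcr2 level was 177 ± 57.9 CPM in Sed and 100.5 ± 61.5 CPM in Ex (n = 2 libraries each). Monocyte-like cells, at 25.7 ± 0.86 CPM, held 42.7% of the 2489 Havcr2 UMIs and T-like cells 18.2%. The dendritic types named here had fewer than 30 cells in at least 1 library, so their Ex and Sed values were not tested.

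Ctla4 (chr1:60887000-60915832, plus strand), the competitor of CD28 for its ligands, was the gene most tied to 1 type. Treg-like cells had 810 ± 205 CPM, and the next type, cycling lymphocytes, had 127 ± 54.9 CPM, with no overlap. Treg-like cells made up 0.73% of the cells and held 35.0% of the 2124 Ctla4 UMIs. Tox (chr4:6686353-6991557, minus strand) was in Treg-like cells at 167 ± 54.6 CPM, cycling lymphocytes at 155 ± 43.3 CPM and ILC1-like cells at 103 ± 46.1 CPM, whose ranges overlapped. Its mean was 34.7 CPM or more in each ranked T, NK and ILC1 type, and migratory dendritic cells, the next, had 1.61 CPM. Effector or exhausted CD8 cells, which were not ranked, held 33.7% of the 2629 Tox UMIs, with a Sed mean of 351 ± 14.0 CPM (n = 2 libraries). Cd160 (chr3:96798763-96829351, minus strand) was highest in ILC1-like cells, at 578 ± 125 CPM, above the range of conventional NK-like cells at 211 ± 121 CPM and cycling lymphocytes at 195 ± 92.3 CPM. NK-like and ILC1-like cells together held 36.2% of its 3745 UMIs and T-like cells 58.4%. Tigit (chr16:43648867-43664146, minus strand), a receptor for CD155, was barely sampled, with 106 UMIs in all libraries. Of these, 59.4% were in T-like and 30.2% in NK-like or ILC1-like cells, so most types gave no usable Tigit level.

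The ligands had their highest levels elsewhere. Cd274 (chr19:29367455-29388095, plus strand) reached 249 ± 111 CPM in migratory dendritic cells, with 193 and 402 CPM in Ex, against 147 and 254 CPM in Sed, above the range of every other ranked type. Other macrophages at 83.7 ± 30.7 CPM, neutrophil-like cells at 76.8 ± 35.6 CPM, ILC1-like cells at 62.9 CPM, B-like cells at 60.8 CPM, Kupffer-like cells at 56.4 CPM and monocyte-like cells at 50.5 CPM followed with overlapping ranges. By number of UMIs, monocyte-like cells held 34.9% of the 5314, neutrophil-like cells 14.7% and B-like cells 11.8%. Pdcd1lg2 (chr19:29410919-29471161, plus strand) was also highest in migratory dendritic cells, at 74.4 ± 23.4 CPM, with 96.7 and 85.2 CPM in Ex, against 73.4 and 42.4 CPM in Sed. Migratory dendritic cells were few, 42 and 15 in Ex and 11 and 44 in Sed, and were not tested. In all they held 95 Cd274 UMIs and 30 Pdcd1lg2 UMIs. ILC1-like cells had 39.1 ± 16.6 CPM and B-like cells 22.3 CPM. A further gene, A930007I19Rik, lies on the opposite strand across Pdcd1lg2, and the strand setting of the counting is not stated in the sources used here. In monocyte-like cells A930007I19Rik had 22.3 and 21.9 CPM in Ex, against 15.6 and 12.2 CPM in Sed, so reads of the 2 genes there may not be told apart. Antisense genes also overlap Tox, Cd160 and Cd274, and in T-like cells the partner of Tox, Gm11802, had at most 1 UMI per library.

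**Figure D1:**
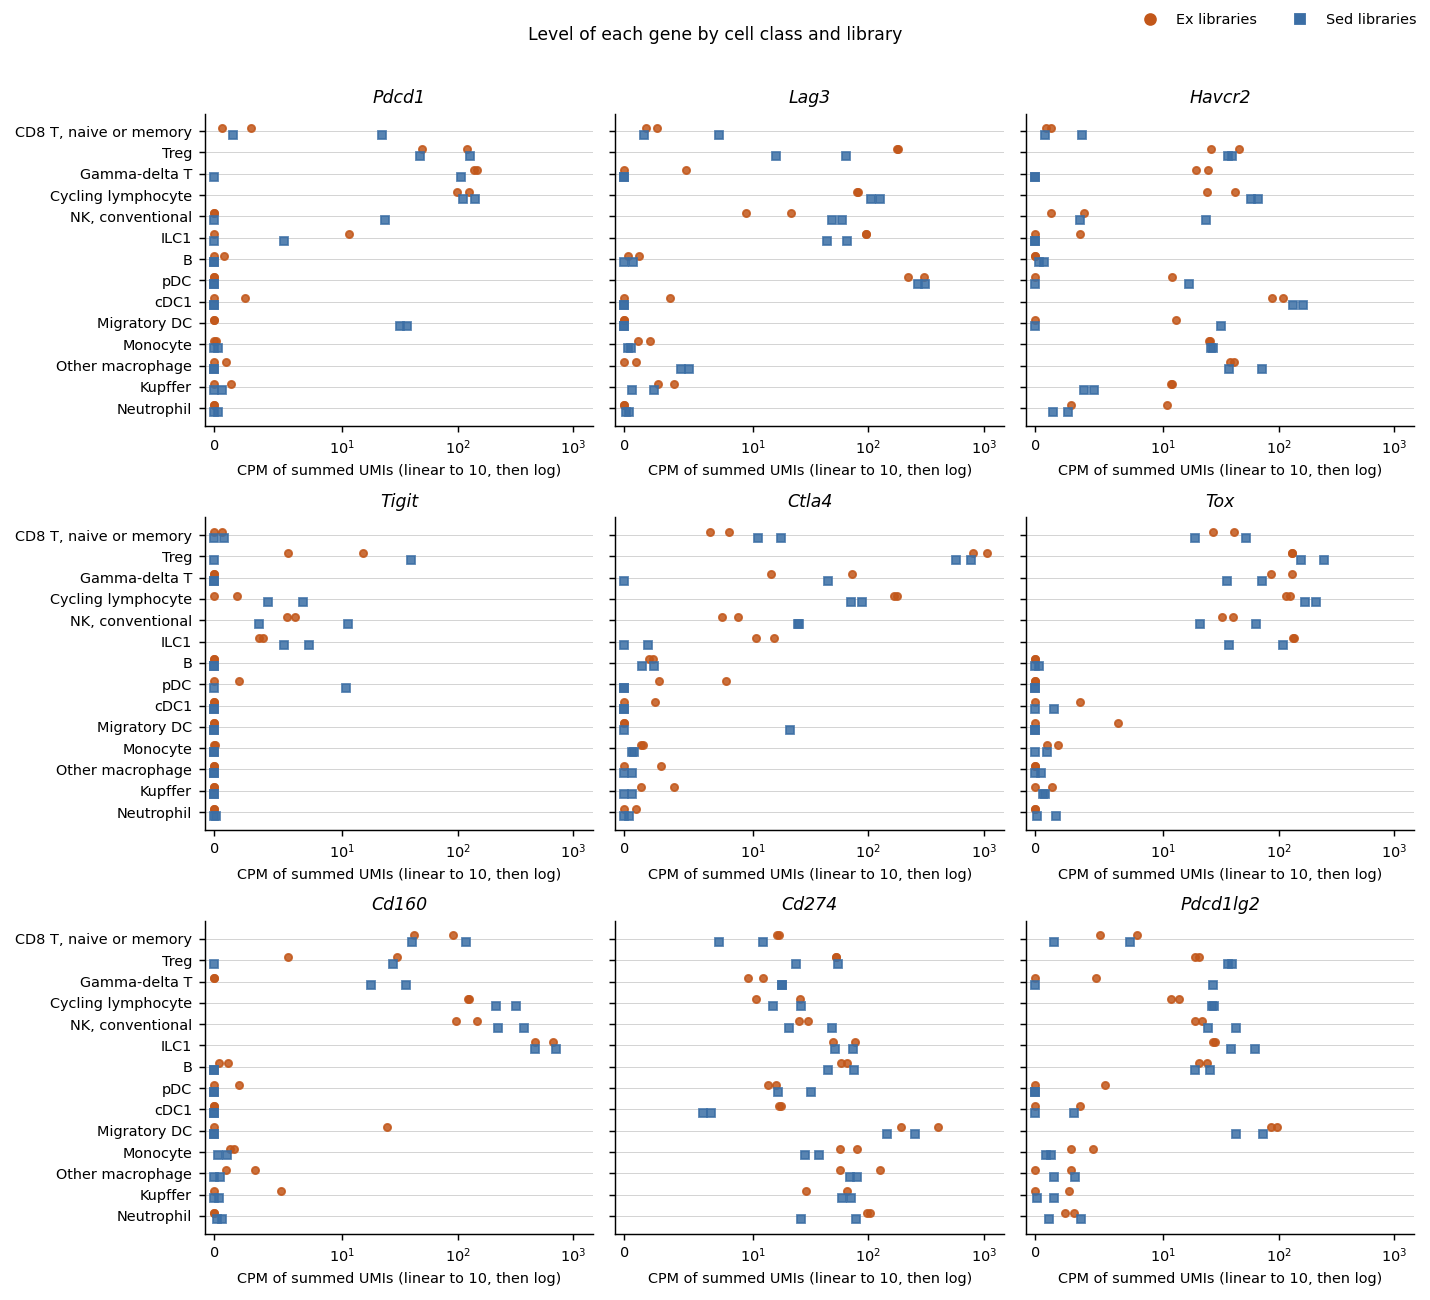
Level of each of the 9 genes (CPM of summed UMIs, on an axis that is linear near 0 and logarithmic above) by cell type. Points are libraries, Ex circles above Sed squares in each row, and effector CD8 T-like cells are not drawn because Ex held 5 and 9 of them. Among types with at least 10 cells in every library, Lag3 stands highest in plasmacytoid dendritic cells and Havcr2 in type 1 dendritic cells. Ctla4 stands highest in Treg-like cells, Cd160 in ILC1-like cells, and both ligands in migratory dendritic cells.

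Over all T-like cells, the question was whether the receptors differed between exercised and sedentary livers. Pdcd1, Lag3, Havcr2, Cd160 and Tox were lower in Ex, by 1.18 to 1.98 on the log2 scale, and none of the 9 genes was higher. Ex held 1100 and 609 T-like cells, against 735 and 840 in Sed. Of 10051 genes tested in these cells, 3.41% passed an adjusted p of 0.05 and 2.11% passed it as lower in Ex, against 5 of the 9 genes, all 9 of which passed the count filter. In all 9 the Ex and Sed values did not overlap, as was so for 47.0% of the genes tested. The DESeq2 Wald test also passed 5 of the 9 (2.06% of all genes it gave a value).

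Pdcd1 had 46.8 and 53.7 CPM in Ex T-like cells, against 84.6 and 138 CPM in Sed. Lag3 had 38.9 and 44.2 CPM in Ex, against 98.6 and 140 CPM in Sed. Havcr2 had 10.5 and 15.02 CPM in Ex, against 44.2 and 51.9 CPM in Sed. For each of these receptors both Ex libraries lay below both Sed libraries, and Sed 2 was the highest. By the edgeR quasi-likelihood test with Benjamini-Hochberg adjustment, the log2 change was -1.18 ± 0.22 (SE) for Pdcd1 (adjusted p = 0.00853), -1.56 ± 0.21 for Lag3 (adjusted p = 0.000727) and -1.98 ± 0.25 for Havcr2 (adjusted p = 0.000354). Tox had 68.7 and 85.4 CPM in Ex, against 164 and 244 CPM in Sed. Cd160 had 90.1 and 71.7 CPM in Ex, against 135 and 271 CPM in Sed. The edgeR adjusted p was 0.00166 for Tox (log2 change -1.44 ± 0.21) and 0.025 for Cd160 (-1.34 ± 0.27).

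The remaining 4 genes did not pass the test. Tigit had 1.59 and 3.34 CPM in Ex T-like cells, against 6.10 and 5.55 CPM in Sed (log2 change -1.38, edgeR adjusted p = 0.17). Pdcd1lg2 had 12.2 and 13.9 CPM in Ex, against 21.6 and 21.2 CPM in Sed (-0.77, edgeR adjusted p = 0.127). Ctla4 had 126 and 114 CPM in Ex, against 78.7 and 101 CPM in Sed, and Cd274 had 25.1 and 32.0 CPM in Ex, against 17.5 and 24.8 CPM in Sed, so the direction of these 2 was the opposite one, with edgeR adjusted p of 0.346 and 0.467.

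The make-up of the T-like cells differed between the groups. The cluster named CD8 effector or exhausted held 5 and 9 cells in Ex, against 232 and 415 in Sed, while CD8 naive or memory cells numbered 419 and 275 in Ex, against 288 and 70 in Sed, and conventional CD4 cells 103 and 44 in Ex, against 7 and 11 in Sed. In the Sed effector or exhausted cells, for which Ex had too few cells to give a level, Pdcd1 was at 177 and 194 CPM, Lag3 at 213 and 225 CPM, Havcr2 at 77.5 and 77.9 CPM and Tox at 341 and 361 CPM. With this cluster left out, an alternative added after seeing the data, Pdcd1 had 46.9 and 51.5 CPM in Ex, against 48.5 and 93.9 CPM in Sed, and Havcr2 was the only one of the 9 genes still below the threshold, where 1.3% of all genes were. Havcr2 then had 10.2 and 14.4 CPM in Ex, against 31.1 and 31.5 CPM in Sed (log2 change -1.40, edgeR adjusted p = 0.0244). Cd160 and Pdcd1 also lost their calls without either Ex library (adjusted p of 0.14 and 0.39 for Cd160, and of 0.098 and 0.085 for Pdcd1, without Ex 1 and without Ex 2).

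T-like cells were also split by transcript: those with a UMI of Cd8a or Cd8b1 and none of Cd4 (CD8-gated), and those with Cd4 and neither Cd8 gene (CD4-gated). All other T-like cells were left out, and they formed a larger share of the T-like cells in Ex than in Sed. Such gates depend on a UMI being sampled, at depths that differ between libraries, and each gate still mixes clusters. This split was added after the cluster counts had been seen. In CD8-gated cells 7 of the 9 genes were lower in Ex: Pdcd1, Lag3, Havcr2, Tigit, Cd160, Tox and Pdcd1lg2. Of 9300 genes tested, 6.33% passed and 3.97% passed as lower in Ex. The groups of 8 of the 9 genes did not overlap, against 49.5% of all genes tested, and DESeq2 passed 5 of the 9, against 3.07% of all. There were 446 and 262 CD8-gated cells in Ex, against 462 and 591 in Sed.

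Havcr2 fell most among those with more than a few UMIs, with 9.68 and 10.0 CPM in Ex CD8-gated cells, against 60.0 and 61.3 CPM in Sed. Lag3 had 28.4 and 37.4 CPM in Ex, against 136 and 176 CPM in Sed. Pdcd1 had 40.5 and 44.8 CPM in Ex, against 116 and 162 CPM in Sed. In these 3 receptors the 2 Ex libraries lay close together and far under the lower Sed library. The log2 change was -2.60 ± 0.27 (SE) for Havcr2 (edgeR adjusted p = 1.65e-05), -2.23 ± 0.24 for Lag3 (2.6e-05) and -1.67 ± 0.23 for Pdcd1 (0.000248). Tox, the factor of the exhausted state, had 53.8 and 75.9 CPM in Ex, against 219 and 288 CPM in Sed, a log2 change of -1.94 ± 0.23 (edgeR adjusted p = 7.49e-05).

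Cd160 had 95.9 and 55.3 CPM in Ex CD8-gated cells, against 152 and 271 CPM in Sed, with no overlap but a wider spread in each group (log2 change -1.43 ± 0.30, edgeR adjusted p = 0.0165). Pdcd1lg2, a ligand that T cells can also make, had 7.56 and 8.43 CPM in Ex, against 23.0 and 20.6 CPM in Sed (-1.44 ± 0.33, edgeR adjusted p = 0.0149, and 0.153 by DESeq2). Tigit rested on 4 UMIs in Ex against 33 in Sed, or 0.605 and 1.05 CPM in Ex, against 6.22 and 6.86 CPM in Sed (-2.98 ± 0.65, edgeR adjusted p = 0.0102, and 0.184 by DESeq2). Ctla4 had 39.3 and 54.8 CPM in Ex, against 76.8 and 87.0 CPM in Sed, with no overlap and an edgeR adjusted p of 0.0575. Cd274 was level, with 19.7 and 25.3 CPM in Ex, against 17.6 and 25.3 CPM in Sed (log2 change 0.09, edgeR adjusted p = 0.908).

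Among CD8-gated cells, 5 and 7 in Ex, against 230 and 398 in Sed, were in the effector or exhausted cluster. Without that cluster 4 genes were still lower in Ex, where 3.27% of all genes passed in either direction. Pdcd1 then had 40.8 and 42.3 CPM in Ex, against 75.0 and 123 CPM in Sed (edgeR adjusted p = 0.0134). Lag3 had 28.6 and 26.8 CPM in Ex, against 83.6 and 107 CPM in Sed (edgeR adjusted p = 0.000558). Havcr2 had 9.13 and 9.10 CPM in Ex, against 47.9 and 40.8 CPM in Sed, and Tox had 53.3 and 69.1 CPM in Ex, against 136 and 189 CPM in Sed, with edgeR adjusted p of 0.000385 and 0.00262. The Ex and Sed libraries of all 4 genes stayed apart, with smaller log2 changes (-1.17 for Pdcd1, -1.71 for Lag3, -2.24 for Havcr2 and -1.35 for Tox).

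Sums of other marker lists moved too. In CD8-gated cells the NK and ILC1 marker list, of which 9 or 10 of 10 genes were detected in each library, summed to 1914 and 1620 CPM in Ex, against 10012 and 12656 CPM in Sed. Nkg7 and Eomes of that list are also in the effector CD8 list, so its sum is not of other cells alone. The effector CD8 list summed to 6631 and 7007 CPM in Ex, against 21675 and 32912 CPM in Sed. The neutrophil list, with 12 or 13 of 13 genes, summed to 87.1 and 74.8 CPM in Ex, against 446 and 196 CPM in Sed. The erythroid list reached 1887 CPM in Ex 1, against 18.97 to 40.3 CPM in the other 3 libraries. The macrophage list overlapped, at 416 and 125 CPM in Ex, against 200 and 899 CPM in Sed, and with the T-like cluster led by macrophage genes left out the same 7 genes and Ctla4 were lower, where 8.3% of all genes passed in either direction. The part of the other lists in the result was not tested. Among cells named CD8 naive or memory, 1.56% of 7876 genes passed the edgeR test and none of the 5 checkpoint genes that could be tested did, nor by DESeq2, which passed 0.0497% of all genes. Of these 5, 1 had an unadjusted p under 0.05, as 11.4% of all genes had: Ctla4, with 6.70 and 8.20 CPM in Ex, against 17.5 and 11.1 CPM in Sed (log2 change -1.25, edgeR adjusted p = 0.252).

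**Figure D2:**
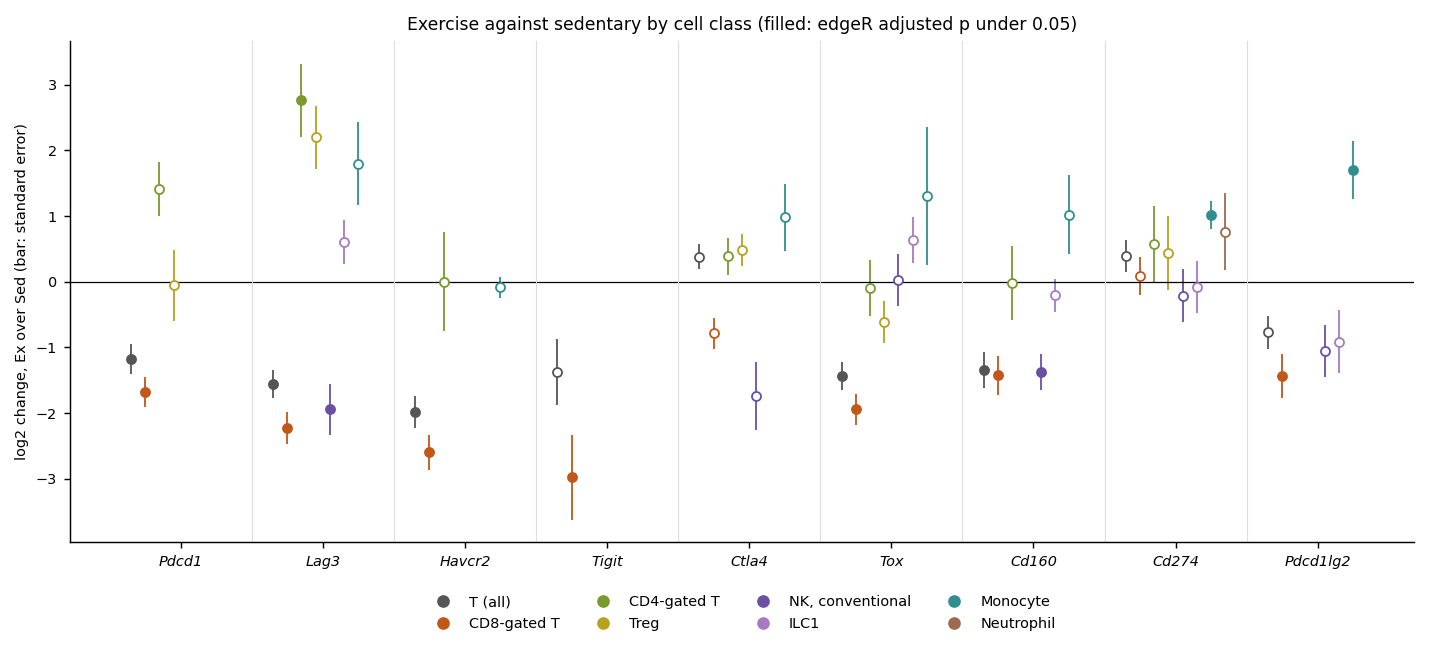
Log2 change of each gene in Ex relative to Sed in the tested cell types (edgeR estimate, bars ± SE). Points under 0 are lower in Ex, and filled points passed an adjusted p of 0.05. The filled points of T-like, CD8-gated and conventional NK-like cells lie under 0, and those of Lag3 in CD4-gated cells and of Cd274 and Pdcd1lg2 in monocyte-like cells lie above it.

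In CD4-gated cells the receptors did not follow. Lag3 had 112 and 110 CPM in Ex, against 4.02 and 37.4 CPM in Sed, and was the only one of the 7 tested genes to pass (log2 change 2.76 ± 0.56, edgeR adjusted p = 0.0291). Here 0.357% of 4768 genes passed and 0.189% passed as higher in Ex. Cells were few: 179 and 87 in Ex, against 64 and 35 in Sed, and the Lag3 values stand on 168 UMIs in Ex and 5 in Sed. The call was lost without Sed 1 and by DESeq2, which called 0 of all genes. Pdcd1 had 102 and 122 CPM in Ex, against 28.1 and 56.1 CPM in Sed, from 164 UMIs in Ex and 13 in Sed, with no overlap and an edgeR adjusted p of 0.213 (log2 change 1.41 ± 0.41). Groups did not overlap in 3 of the 7 genes and in 41.7% of all. Without the T-like cluster led by macrophage genes both Lag3 and Pdcd1 were higher in Ex (log2 change 3.42 and 1.93, edgeR adjusted p of 0.00546 and 0.0438), where 0.623% of all genes passed in either direction. Ctla4 had 476 and 347 CPM in Ex, against 225 and 374 CPM in Sed, and Tox 119 and 175 CPM in Ex, against 72.3 and 253 CPM in Sed, both overlapping. Cycling cells formed 16 and 4 of the CD4-gated cells in Ex, against 0 and 1 in Sed, and the cycling marker list summed to 2738 and 1899 CPM in Ex, against 647 and 1264 CPM in Sed. Cells of the conventional CD4 class made up 36 and 18 of the gated cells in Ex, against 4 and 5 in Sed, and cells of unnamed T and NK clusters 66 and 31 in Ex, against 11 and 7 in Sed. One of those unnamed clusters, led by Pdcd1 and Cd4 among other genes and singled out after its values had been seen, held 58 and 58 Pdcd1 UMIs in Ex (38 and 15 cells), against 4 and 1 in Sed (3 and 6 cells), gated or not. The part of these cells in the Lag3 and Pdcd1 values was not tested.

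The difference between both gates was tested directly, with each library as a block. The change in Ex was lower in CD8-gated than in CD4-gated cells for 5 genes: by 5.08 ± 0.47 (SE) log2 units for Lag3, 3.11 ± 0.40 for Pdcd1, 2.65 ± 0.59 for Havcr2, 1.97 ± 0.30 for Tox and 1.29 ± 0.27 for Ctla4. The edgeR adjusted p was 1.07e-24 for Lag3, 9.3e-13 for Pdcd1, 0.000288 for Havcr2, 5.25e-09 for Tox and 6.72e-05 for Ctla4, where 6.68% of 9110 genes passed. The block takes out what both gates of a library share. It does not take out what is particular to 1 gate of a library, such as its make-up by cluster. Unlike the tests within a class, these p-values measure how the difference between gates varied over libraries, not the spread between libraries. Their small size stands on 2 libraries a group, and for Lag3 on 5 UMIs in Sed CD4-gated cells. Cd160 and Pdcd1lg2 did not pass (edgeR adjusted p of 0.0514 and 0.195).

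Treg-like cells, identified by markers that do not include the 9 genes, gave levels from 58 and 45 cells in Ex and 31 and 40 in Sed. Lag3 had 180 and 177 CPM in Ex, against 15.8 and 63.9 CPM in Sed, from 109 UMIs in Ex and 9 in Sed (log2 change 2.20 ± 0.48, edgeR adjusted p = 0.151). Ctla4 had 1076 and 813 CPM in Ex, against 576 and 776 CPM in Sed (0.49, edgeR adjusted p = 0.618). Tox had 131 and 132 CPM in Ex, against 158 and 246 CPM in Sed (-0.61, edgeR adjusted p = 0.667). None of these 3, of 5 tested, overlapped between the groups, as was so for 37.5% of all genes, and none passed. Among all 2963 genes edgeR called 0, with 252 (8.5%) at an unadjusted p under 0.05, and DESeq2 called 5 of 2418 (0.207%) and none of the 4 it gave a value. Pdcd1 had 49.4 and 120.5 CPM in Ex, against 47.4 and 128 CPM in Sed, so that each group had 1 high and 1 low library.

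**Figure D3:**
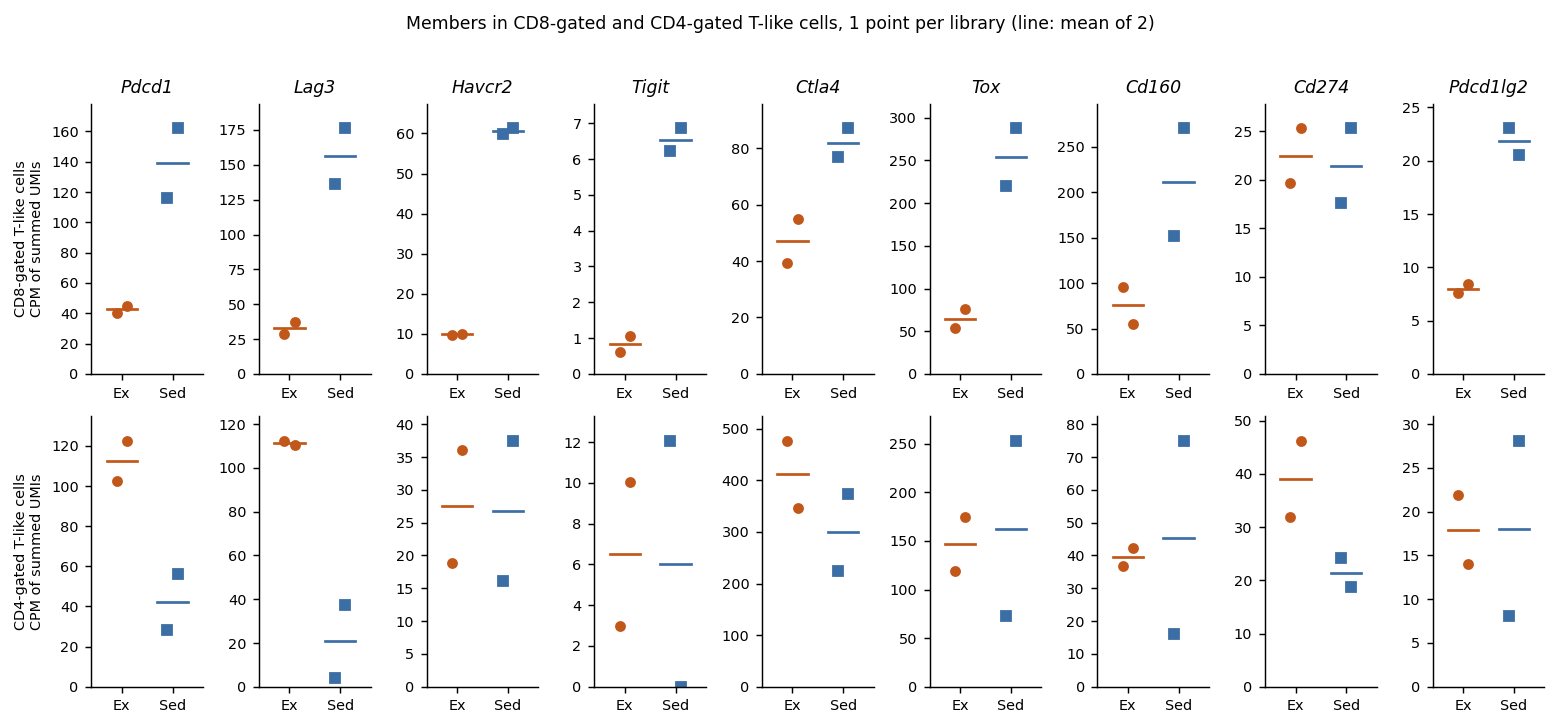
Levels (CPM) of the 9 genes in CD8-gated and CD4-gated T-like cells, 1 point per library, Ex left of Sed. In CD8-gated cells the Ex points of Pdcd1, Lag3, Havcr2 and Tox lie below the Sed points, while in CD4-gated cells those of Lag3 and Pdcd1 lie above them.

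Per cell, the receptors were found together more often in Sed CD8-gated cells. The share with a UMI of Pdcd1 was 7.62% and 8.40% in Ex, against 33.8% and 37.9% in Sed. For Lag3 it was 6.73% and 8.40% in Ex, against 38.3% and 43.7% in Sed, and for Tox 17.7% and 24.0% in Ex, against 51.1% and 57.0% in Sed. The median depth ran the other way, with 6065 and 5910 UMIs per cell in Ex, against 5006 and 3138 in Sed. With every cell thinned to 1500 UMIs (4 and 0 shallower cells left out in Ex, 12 and 58 in Sed) the shares were 1.13% and 3.05% in Ex, against 12.2% and 21.2% in Sed, for Pdcd1. The same thinning gave 2.26% and 1.91% in Ex, against 15.1% and 23.6% in Sed, for Lag3, and 5.43% and 8.02% in Ex, against 27.1% and 36.2% in Sed, for Tox. All of these were far above B-like cells, in which at most 0.298% had a Lag3 UMI and at most 0.0747% a Tox UMI without thinning.

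At least 3 of the 6 receptors were detected in 4.93% and 7.25% of Ex CD8-gated cells (22 and 19 cells), against 30.3% and 25.9% in Sed (140 and 153 cells). None of the 6 was detected in 57.6% and 72.9% in Ex, against 34.0% and 20.3% in Sed. After thinning, at least 3 were detected in 0.679% and 0.763% in Ex, against 2.67% and 6.75% in Sed, and none in 83.9% and 86.3% in Ex, against 60.4% and 35.5% in Sed. In CD4-gated cells, at least 3 receptors were detected in 16.2% and 19.5% in Ex (29 and 17 cells), against 4.69% and 5.71% in Sed (3 and 2 cells). Median depth was also greater in Ex there, at 3932 and 4835 UMIs per cell, against 3565 and 2489 in Sed. After thinning only 2 of 172 and 1 of 85 Ex cells kept at least 3 receptors, against 0 of 64 cells in Sed 1, which allows a share of up to 4.69%, and Sed 2 was left with 28 cells and given no share. No difference was thus detectable in the thinned CD4-gated cells. With 2 libraries a group the smallest p of an exact test on such shares is 0.333, so none was made.

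Tox was found more often in cells with more receptors. In CD8-gated cells with none of the 6, 8.56% and 15.7% had a Tox UMI in Ex, against 14.6% and 30.8% in Sed. With 1 receptor the share was 18.2% and 26.8% in Ex, against 52.5% and 58.0% in Sed, and with at least 3 it was 95.5% and 78.9% in Ex, against 82.1% and 72.5% in Sed. Since deep cells show more of every gene, the thinned shares were taken too: 3.77% and 4.87% in Ex, against 15.8% and 25.9% in Sed, with none, and 12.5% and 29.0% in Ex, against 41.4% and 41.9% in Sed, with 1. The order from none to 1 receptor was the same in all 4 libraries after thinning, and in both thinned shares the Sed libraries lay above the Ex libraries.

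Pairs of genes were compared with the product of their shares. Over CD8-gated cells Pdcd1 and Lag3 were found together in 16 and 14 cells in Ex, where the products give 2.29 and 1.85, ratios of 6.996 and 7.58. In Sed they were together in 103 and 123 cells, where the products give 59.8 and 97.8, ratios of 1.72 and 1.26. Pdcd1 and Tox were together 4.15 and 3.40 times as often as the product in Ex, against 1.57 and 1.19 times in Sed. Within the Sed effector or exhausted cluster alone the ratios of Pdcd1 with Lag3 were 1.15 and 1.12, and 1.07 and 0.926 after thinning. The ratios of Pdcd1 with Tox there were 1.08 and 1.15, and 0.901 and 1.07 after thinning. Ratios within that cluster were nearer to 1 than those over all CD8-gated cells. A ratio cannot exceed 1 divided by the larger of both shares, so large shares hold it near 1. The mean Lag3 share was 7.56% in Ex and 41.0% in Sed CD8-gated cells, and 50.5% in the Sed cluster, where that of Tox was 65.6%. The ratios of Ex, Sed and the cluster can therefore not be compared as strengths of association. In CD4-gated Ex cells Pdcd1 and Lag3 were together in 18 and 11 cells against products of 8.49 and 3.68. After thinning they were together in 4 and 0 of these cells, against products of 1.99 and 0.412. In Ex Treg-like cells all 17 and 10 cells with Lag3 also had Ctla4, where the products give 15.2 and 8.22, as 52 of 58 and 37 of 45 of those cells had a Ctla4 UMI.

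**Figure D4:**
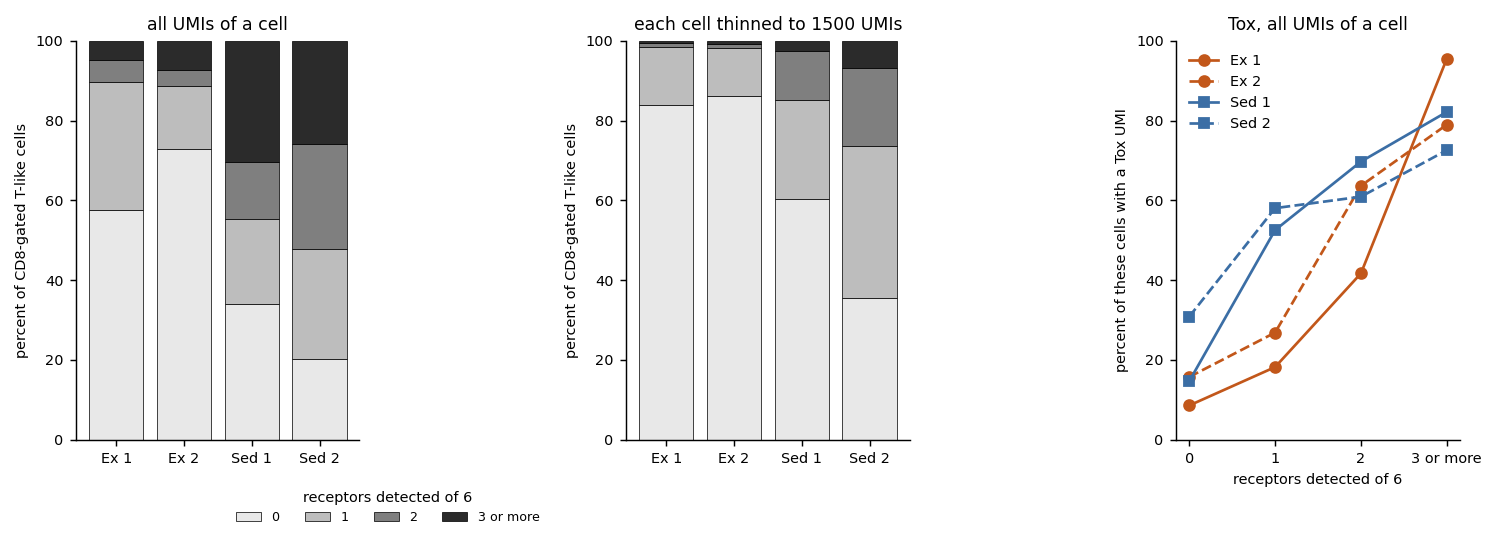
Stacked bars give the share of CD8-gated T-like cells (%) with 0, 1, 2 or at least 3 of the 6 receptors detected, by library, from all UMIs (left) and with each cell thinned to 1500 UMIs (middle); lines (right) give the share of these cells with a Tox UMI by number of receptors. At least 3 receptors were found in 4.93% and 7.25% of Ex cells, against 30.3% and 25.9% of Sed cells.

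Over NK-like and ILC1-like cells no checkpoint gene passed the edgeR test, which called 0.146% of 7524 genes. Of the 6 tested, 3 had an unadjusted p under 0.05 (13.3% of all genes) and DESeq2 (3.01% of all called) gave a value to Cd160 alone, with an adjusted p of 0.087. Lag3 had 42.0 and 36.1 CPM in Ex, against 56.4 and 58.5 CPM in Sed (log2 change -0.70, edgeR adjusted p = 0.282). Cd160 had 224 and 274 CPM in Ex, against 275 and 529 CPM in Sed (-0.82, edgeR adjusted p = 0.207), and the ligand Pdcd1lg2 had 26.3 and 21.6 CPM in Ex, against 42.9 and 33.6 CPM in Sed (-0.85, edgeR adjusted p = 0.274). In these 3 of the 6 the Ex libraries lay below the Sed libraries without overlap, as 46.6% of all genes did in either direction. The change of Tox in Ex was lower in T-like than in NK-like and ILC1-like cells by 1.41 ± 0.28 log2 units (edgeR adjusted p = 0.0154), where 1.8% of 9793 genes passed. The same difference did not pass for Lag3 (-0.82, adjusted p = 0.121), Ctla4 (1.39, 0.131) or Cd160 (-0.49, 0.305) by the same edgeR test.

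Conventional NK-like cells, 205 and 124 in Ex and 149 and 89 in Sed, had 2 genes lower in Ex of 6 tested, where 2.5% of 6195 genes passed and 1.36% passed as lower. Lag3 had 21.5 and 9.505 CPM in Ex, against 59.9 and 49.1 CPM in Sed (log2 change -1.94 ± 0.39, edgeR adjusted p = 0.00258). Cd160 had 148 and 96.9 CPM in Ex, against 226 and 375 CPM in Sed (-1.37 ± 0.27, edgeR adjusted p = 0.00247). A cluster led by Gzmc held 1 and 0 of these cells in Ex, against 74 and 11 in Sed. Without it, where 1.14% of 5093 genes passed, Lag3 lost its call (-0.95, edgeR adjusted p = 0.464) and Cd160 kept it (-1.43, edgeR adjusted p = 3.38e-05). Cd160 lost its call without Ex 2 (adjusted p = 0.311). The macrophage marker list in these NK-like cells summed to 197 and 78.0 CPM in Ex, against 1386 and 618 CPM in Sed, with 8 to 11 of 14 genes detected, and its part in these values was not tested.

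Of the genes that did not pass in conventional NK-like cells, Ctla4 had 8.86 and 7.60 CPM in Ex, against 25.2 and 24.6 CPM in Sed (-1.74, edgeR adjusted p = 0.0566), and Pdcd1lg2 had 21.5 and 19.01 CPM in Ex, against 42.5 and 24.6 CPM in Sed (-1.05, edgeR adjusted p = 0.127). In ILC1-like cells, 80 and 69 in Ex and 58 and 181 in Sed, 0.537% of 3913 genes passed and none of 5 checkpoint genes did. Cd160 had 472 and 663 CPM in Ex, against 469 and 706 CPM in Sed (-0.21, edgeR adjusted p = 0.807). Pdcd1lg2 had 28.4 and 26.8 CPM in Ex, against 62.8 and 38.5 CPM in Sed (-0.91, edgeR adjusted p = 0.457), while Lag3 had 95.8 and 95.8 CPM in Ex, against 44.4 and 66.0 CPM in Sed, and Tox 135 and 134 CPM in Ex, against 37.0 and 108 CPM in Sed. Lag3 and Tox of ILC1-like cells were thus the higher in Ex, without overlap and without passing, and 46.9% of all genes did not overlap there.

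Among myeloid cells the ligand Cd274 was higher in Ex monocyte-like cells as a whole and not in any of 3 clusters of them that were tested. It had 56.6 and 79.3 CPM in Ex, against 37.5 and 28.4 CPM in Sed, with both Ex libraries above both Sed libraries (log2 change 1.02 ± 0.21, edgeR adjusted p = 0.0222). Pdcd1lg2 had 2.82 and 4.53 CPM in Ex, against 0.853 and 1.29 CPM in Sed (1.71 ± 0.44, edgeR adjusted p = 0.0436), from 55 UMIs in Ex and 27 in Sed. These 2 of 7 tested genes passed, where 9.78% of 11333 genes passed and 6.34% passed as higher in Ex. A Pdcd1lg2 UMI was found in 1.87% and 2.92% of Ex monocyte-like cells, against 0.7003% and 0.885% of Sed ones, at medians of 6874 and 7862 UMIs per cell in Ex, against 7854 and 7463 in Sed. In neutrophil-like cells that share was 0.867% and 0.829% in Ex, against 0.313% and 0.802% in Sed, at medians of 2089 to 2592 UMIs. The Sed monocyte shares were of similar size at greater depth, so the shares of both types cannot be compared as levels.

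The monocyte-like cells of Ex and Sed were mostly of different clusters. A cluster led by Cxcl10 and Cxcl9, both induced by interferon gamma, held 854 and 336 cells in Ex, against 95 and 144 in Sed. The cluster led by Fn1 held 416 and 224 in Ex, against 1081 and 1162 in Sed. Within each, Cd274 was not higher in Ex. It had 92.8 and 158 CPM in Ex Cxcl10-led cells, against 216 and 140 CPM in Sed (log2 change -0.49, edgeR adjusted p = 0.568), with overlap. Fn1-led cells had 10.9 and 10.2 CPM in Ex, against 23.2 and 17.6 CPM in Sed (-0.92, edgeR adjusted p = 0.0957), where 2.77% of all genes passed. Cells led by Ace, a gene of patrolling monocytes, had 58.5 and 35.8 CPM in Ex, against 124 and 95.3 CPM in Sed (-1.19, edgeR adjusted p = 0.178), where 1.05% of all genes passed. In the last 2 clusters both Ex libraries lay below both Sed libraries, the opposite of the pooled direction. A further monocyte-like cluster, of 99 and 45 cells in Ex and 101 and 287 in Sed, was not tested on its own. Pooled monocyte-like and macrophage-like cells had 55.0 and 81.2 CPM in Ex, against 44.2 and 43.0 CPM in Sed (0.64, edgeR adjusted p = 0.191), where 1.02% of 11816 genes passed. In the same pool Pdcd1lg2 had 2.81 and 4.10 CPM in Ex, against 1.16 and 1.04 CPM in Sed (1.63, edgeR adjusted p = 0.129). Ctla4 and Cd160 there were at most 1.48 and 1.77 CPM in any library (1.26 and 1.45, edgeR adjusted p of 0.273 and 0.301).

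Both calls in monocyte-like cells were lost without either Ex library. DESeq2 called Cd274 and not Pdcd1lg2 (adjusted p = 0.143), against 8.21% of all genes. The direction of Cd274 turned when clusters were drawn at resolution 0.5 (-0.99), when the 9 genes were used in clustering (-0.82) and when doublets were kept (-0.14). T markers in monocyte-like cells summed to 117 and 74.5 CPM in Ex, against 13.1 and 24.9 CPM in Sed, with 10 of 10 detected in each library. The macrophage list there summed to 9015 and 7415 CPM in Ex, against 2426 and 1687 CPM in Sed. The Kupffer cell list summed to 1096 and 968 CPM in Ex, against 239 and 273 CPM in Sed, and the B cell list to 223 and 609 CPM in Ex, against 62.8 and 128 CPM in Sed. The neutrophil list was lower, at 693 and 1897 CPM in Ex, against 14936 and 6376 CPM in Sed. None of these lists overlapped between the groups, and their part in the Cd274 and Pdcd1lg2 values was not tested. Lag3, at 1.03 and 1.99 CPM in Ex monocyte-like cells, against 0.256 and 0.530 CPM in Sed (log2 change 1.80, edgeR adjusted p = 0.110), was found in at most 1.38% of cells. Cd274 and Pdcd1lg2 were found in the same monocyte-like cell 16 and 17 times in Ex, where the products of their shares give 6.74 and 5.73, against 5 and 8 times in Sed, where the products give 1.79 and 2.12. After thinning to 1500 UMIs the pair was found in 1 cell of each library.

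**Figure D5:**
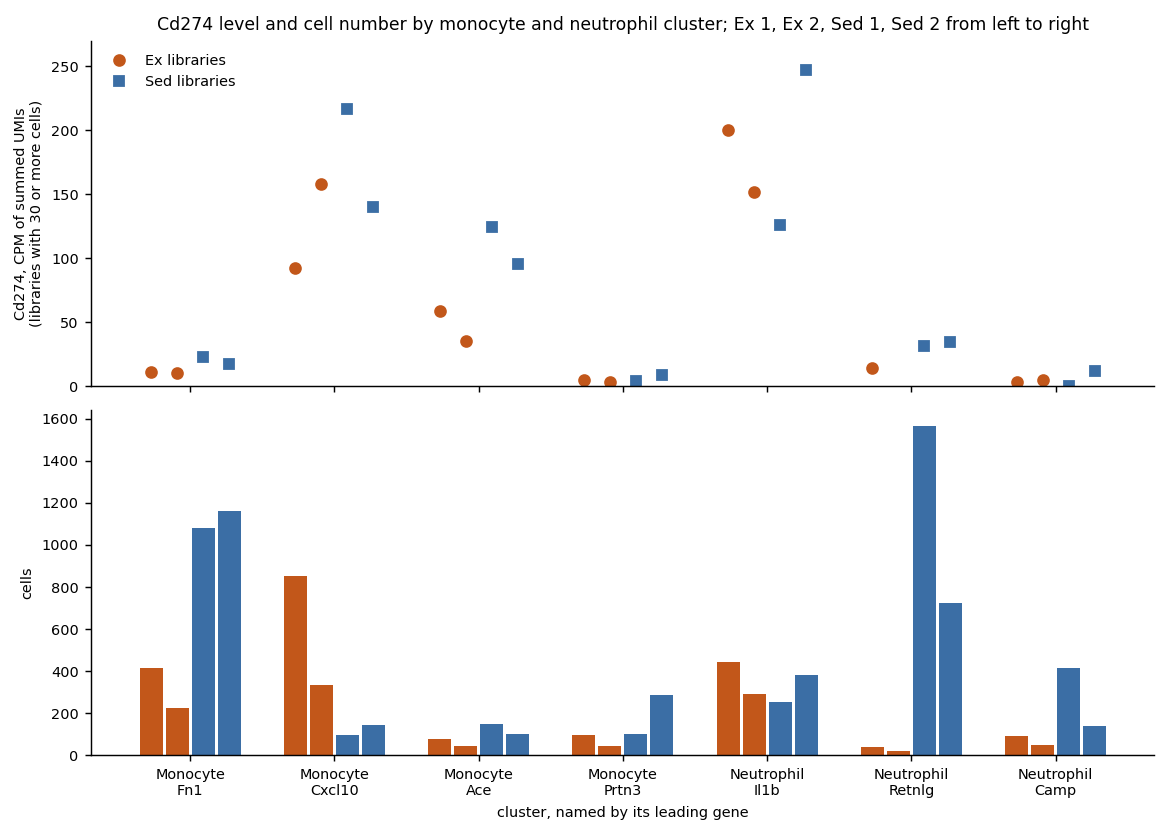
Cd274 level (upper panel, CPM, 1 point per library with at least 30 cells) and number of cells (lower panel, bars) in the clusters of monocyte-like and neutrophil-like cells, Ex left of Sed. The Ex points of the Fn1-led and Ace-led monocyte clusters lie below the Sed points, although the pooled monocyte-like level is higher in Ex (56.6 and 79.3 CPM, against 37.5 and 28.4 CPM in Sed); the Retnlg-led cluster of Ex 2 held 22 cells and is not drawn.

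Havcr2 was called in 1 myeloid cluster. In Cxcl10-led monocyte-like cells it had 33.0 and 34.5 CPM in Ex, against 111 and 64.1 CPM in Sed (log2 change -1.31 ± 0.26, edgeR adjusted p = 0.0191), where 1.19% of 8379 genes passed. The call held by DESeq2 (adjusted p = 0.0428, 1.02% of all genes) and was lost without Sed 1. Fn1-led cells had 13.4 and 11.9 CPM in Ex, against 19.1 and 23.6 CPM in Sed (-0.71, edgeR adjusted p = 0.141), and Ace-led cells had 74.8 and 67.9 CPM in Ex, against 77.6 and 104 CPM in Sed (-0.30, edgeR adjusted p = 0.803). Over all monocyte-like cells Havcr2 was level, with 25.3 and 24.8 CPM in Ex, against 25.8 and 26.8 CPM in Sed (log2 change -0.08).

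Neutrophil-like cells had 104 and 98.7 CPM of Cd274 in Ex, against 26.2 and 78.3 CPM in Sed (log2 change 0.76, edgeR adjusted p = 0.605), where 0.922% of 7481 genes passed. Their clusters differed in size as well: the Il1b-led one held 444 and 292 cells in Ex, against 255 and 382 in Sed, and the Retnlg-led one 41 and 22 in Ex, against 1564 and 726 in Sed. In Il1b-led cells Cd274 had 200 and 152 CPM in Ex, against 126 and 247 CPM in Sed (-0.08, edgeR adjusted p = 0.989), with overlap, where 0.119% of all genes passed. In Kupffer-like cells, 452 and 111 in Ex and 388 and 1126 in Sed, the Cd274 level was 29.0 and 65.7 CPM in Ex, against 60.0 and 71.0 CPM in Sed (-0.59, edgeR adjusted p = 0.643). Havcr2 there had 11.9 and 11.6 CPM in Ex, against 3.79 and 4.64 CPM in Sed (1.49, edgeR adjusted p = 0.5005), where 0.158% of 7606 genes passed. The difference between the changes of Kupffer-like cells and of other macrophages was not called for Havcr2 (1.79, edgeR adjusted p = 0.475), where 0.0801% of 8738 genes were. Other macrophages, 128 and 39 in Ex and 178 and 261 in Sed, had 57.5 and 127 CPM of Cd274 in Ex, against 80.6 and 69.2 CPM in Sed, with overlap. In this type edgeR called 0 of 8285 genes, with 610 (7.36%) at an unadjusted p under 0.05, and DESeq2 called 14 of 4642 (0.302%) and neither Cd274 nor Havcr2.

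Other genes of the pathway were read in the same fits. In CD8-gated cells, of 13 further inhibitory receptors 11 were tested, of which 3 were lower in Ex and 1 was higher. Of all genes 6.33% passed in either direction and 3.97% passed as lower. The median log2 change of these receptors was -0.17, against 0.0059 over all genes. Entpd1, the ectoenzyme CD39, had 7.86 and 13.7 CPM in Ex, against 58.5 and 92.6 CPM in Sed (log2 change -2.83). Klrc1, the receptor NKG2A, had 59.3 and 91.2 CPM in Ex, against 148 and 214 CPM in Sed (-1.24). Btla was the one higher in Ex, with 20.3 and 16.9 CPM in Ex, against 9.88 and 4.29 CPM in Sed (1.38). The edgeR adjusted p was 4.7e-05 for Entpd1, 0.00685 for Klrc1 and 0.0475 for Btla, and no library of one group reached those of the other.

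Of 16 tested transcription factors linked to exhaustion or memory, 4 were lower and 1 was higher in Ex CD8-gated cells, beside 6.33% of all genes in either direction and 3.97% lower. Their median log2 change was -0.49, against 0.0059 over all genes. Nr4a2, which acts beside Tox, had 91.9 and 73.2 CPM in Ex, against 330 and 440 CPM in Sed (-2.18, edgeR adjusted p = 1.6e-05). Prdm1, which codes for Blimp-1, had 12.1 and 13.2 CPM in Ex, against 30.7 and 37.7 CPM in Sed (-1.41, edgeR adjusted p = 0.00543). Id3, a factor of memory precursors, had 55.9 and 24.2 CPM in Ex, against 15.4 and 12.9 CPM in Sed (1.56, edgeR adjusted p = 0.0301). Nr4a2 and Prdm1 thus lay on the side of the receptors, and Id3 on the other.

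Of 8 tested costimulatory receptors 2 were lower in Ex CD8-gated cells (Tnfrsf9, -0.83, and Tnfrsf18, -1.04), and of 8 tested ligands 3 were lower (Lgals3, Cd86 and Cd48), beside 3.97% of all genes. The medians were -0.55 for the receptors and -0.79 for the ligands, against 0.0059 over all genes. Lgals3, which codes for galectin-3, had 49.9 and 46.4 CPM in Ex, against 341 and 213 CPM in Sed (-2.51). Of 11 tested genes of phosphatases and adaptors 1 was lower and 1 was higher, beside 6.33% of all genes in either direction, with a median of -0.16. The higher one was Ptpn6, the phosphatase SHP-1, with 163 and 148 CPM in Ex, against 42.8 and 94.3 CPM in Sed (1.23, edgeR adjusted p = 0.0237). In monocyte-like cells 5 of 12 tested interferon gamma genes were higher in Ex, beside 6.34% of all genes, and none was lower. Their median log2 change was 0.82, against 0.000933 over all genes. Gbp2 had 292 and 381 CPM in Ex, against 63.7 and 49.5 CPM in Sed (2.55, edgeR adjusted p = 0.00042). These lists were chosen with earlier results of these data known and overlap the leading genes of the Cxcl10-led cluster.

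Genes with the most similar pattern were found over 40 sums (10 cell types in 4 libraries) by Pearson's r of log2(CPM + 1), as a description without a test, since sums of 1 library share their depth and handling. For Pdcd1 these were Tnfrsf4 (0.88), Ctla4 (0.86) and Ikzf4 (0.86), and for Ctla4 Tnfrsf4 (0.89), C230024C17Rik (0.87) and Foxp3 (0.86). Lag3 was nearest to Gzmb (0.89), Osbpl3 (0.88) and Sytl2 (0.87), and Havcr2 to Gapdh (0.88), Mcub (0.85) and Aldoa (0.81). Tox followed T cell genes most closely of all, with Gata3 at 0.98, Sla2 at 0.97 and Zap70 at 0.96, while Cd160 followed Gm20069 (0.96), Cd7 (0.95) and Klre1 (0.95). Tigit was nearest to Itga2 (0.86), Klrg1 (0.84) and Bicd1 (0.82), and Pdcd1lg2 to Gem, Gpr174 and Jakmip1 (0.90 each). Cd274 had no close companion, with Irak2 and Bcl2a1b at 0.75 each.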

How the data were processed

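The deposited values are UMI counts for each gene in each barcode, aggregated by the authors with Cell Ranger (7.0.0 per the submitters' processing notes, 6.1.1 per the file header; builds mm10 and GRCm38). Of its 51140 columns the 28525 with a barcode were used (135480097 UMIs), and 22615 without one were not. The ends of the barcode blocks lay 3, 1, 33 and 0 cells from breaks in the columns. The filter asked for 200 or more genes in a cell and a mitochondrial share of 10% or less. Scrublet, whose automatic caller marked 252 and 322 Sed cells and 1 and 1 Ex cells, was used by its highest scores up to 0.8% per 1000 cells, which removed 293 and 144 Ex and 422 and 462 Sed cells. Leiden clustering (scanpy 1.11.5, leidenalg 0.10.2, resolution 1) left out the 9 genes, and T, NK and dendritic cells were clustered again.

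Where all 4 libraries had 30 or more cells of a class, its sums were tested on the whole table with the edgeR 4.0.16 quasi-likelihood test (TMM, filterByExpr, Benjamini-Hochberg) in R 4.3.3, and with DESeq2 1.42.0 beside it. Exercise was compared within a class, and between classes with the library as a block. The script was tested on counts simulated from the T-like sums alone. It called 59 of 100 planted 2-fold changes, 100 of 100 planted 4-fold changes and 11 of 9851 unchanged genes. A change of 2-fold can thus be missed, and smaller classes were not simulated. All 9 genes are named; a change is printed where the adjusted or unadjusted p is under 0.05 and in the tested class where the gene is highest, and up to 4 genes per list. Some genes that this rule names are not reported here. The members and lists were chosen with earlier results of these data known. The groups share replicate numbers, but the deviations of same-numbered libraries correlated by -0.067 to 0.211, so no pairing was assumed. Alternatives were other normalization, filters, resolutions, doublets kept, the 9 genes used in clustering, thinned sums, a replicate block and each library left out; those without single clusters, the Cd8 and Cd4 split and single clusters were added after the data had been seen. Intervals other than SD and SE are not given, and depth limits are counting limits only. Sequences are from RefSeq (GRCm38.p6) and positions from GENCODE vM21 (mm10); Lag3 and Tox have none of these sequences shown.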

Additional observations from a re-analysis of the deposited data

Results flagged for a closer look

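The response to exercise differed between CD8-gated and CD4-gated T-like cells for 5 genes, by an edgeR test of the difference itself. The log2 change in Ex relative to Sed in CD8-gated cells, minus that in CD4-gated cells, was -5.08 for Lag3, -3.11 for Pdcd1, -2.65 for Havcr2, -1.97 for Tox and -1.29 for Ctla4. In CD4-gated cells Lag3 was higher in Ex (2.76), a call lost by DESeq2 and without Sed 1, and Pdcd1 did not pass (1.41, edgeR adjusted p = 0.213). Havcr2, Tox and Ctla4 had overlapping groups in CD4-gated cells. Sed held 64 and 35 CD4-gated cells, so those values stand on few UMIs.

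Tox was also picked out between cell families: its change in T-like cells minus that in NK-like and ILC1-like cells was -1.41.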

How the results depend on the processing

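Of the checkpoint genes called, the number was 5 in T-like cells (3 to 5 when a library was left out, 1 without the effector CD8 cluster), 7 in CD8-gated cells (5 to 7, and 4), and 1 in CD4-gated cells (0 to 2; 0 by DESeq2, without TMM, with thinned sums, at resolutions 0.5 and 2 and with the 9 genes used in clustering; 2 without the cluster of macrophage RNA). In conventional NK-like cells it was 2 (1 to 6 when a library was left out; 1 by DESeq2, with thinned sums, at resolution 0.5, with the 9 genes used in clustering and without the Gzmc cluster; 4 without a low-count filter; 0 at resolution 2 and with doublets kept). In monocyte-like cells it was 2 (0 to 3; 1 by DESeq2 and with thinned sums; 0 at both other resolutions, with the 9 genes used in clustering and with doublets kept). Where it was 0 it became 1 in CD8 naive or memory cells with doublets kept, in other macrophages at resolution 0.5, in neutrophil-like cells without 1 library (0 to 1), and in Treg-like cells without a low-count filter, with thinned sums, at resolution 0.5, with the 9 genes used in clustering and with doublets kept (0 to 1 without a library). NK-like and ILC1-like cells gave 2 without the filter and 0 to 3 without a library. The difference between both gates was called in 5 genes (3 to 5 without a library) and that between T-like and NK-like or ILC1-like cells in 1 (1 to 3; 2 without the filter).

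With the replicate number as a block, calls went to 4 in T-like cells and to 1 in NK-like and ILC1-like cells; other counts of calls were within 1.5 times of those without it. The numbers pair no samples that the labels name.

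Signs turned for Ctla4 in CD8 naive or memory cells (0.090 with the 9 genes used in clustering), Lag3 in monocyte-like cells (-0.86 with doublets kept), Cd274 there (-0.99, -0.82 and -0.14 as given above), Cd160 in ILC1-like cells (0.043 without Sed 2; -0.45 to 0.043 over the libraries left out), Cd274 in Il1b-led neutrophil-like cells (0.66 without Sed 2, 0.21 without Ex 2; -0.56 to 0.66 over the libraries left out) and Tox in Treg-like cells (0.21 at resolution 0.5, 0.14 with doublets kept). The cause was not tested. Of the log2 changes, 477 values kept direction and side of the threshold, 34 gained it, 45 lost it and 10 turned.

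Groups of 2 libraries, classes rebuilt from markers, and the reading of barcode numbers as library order limit every comparison. CD4-gated cells are fewest in Sed 2 (35), Treg-like and ILC1-like cells in Sed 1 (31 and 58), and Tigit is too rarely sampled for most types. The planned tests of the difference between Treg-like and CD4 cells and between effector CD8 and NK cells were not run, since a library held fewer than 30 cells.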

Other observations

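Cycling lymphocytes, 74 and 27 in Ex and 78 and 82 in Sed, were too few in Ex 2 to be tested, but gave levels in each library. These cells were not split by type, and more of them were CD4-gated in Ex than in Sed, as counted above. The part of this make-up in the levels was not tested. Ctla4 had 179 and 168 CPM in Ex, against 88.3 and 71.0 CPM in Sed, and was the one of the receptors higher in Ex there. Havcr2 had 24.2 and 41.6 CPM in Ex, against 66.0 and 57.1 CPM in Sed. Cd160 had 126 and 123 CPM in Ex, against 213 and 319 CPM in Sed. Lag3 (79.7 and 81.1 CPM in Ex, against 128 and 106 CPM in Sed) and Tox (116 and 125 CPM in Ex, against 170 and 209 CPM in Sed) were lower in Ex without overlap, and Pdcd1 overlapped, with 99.4 and 125 CPM in Ex, against 112 and 142 CPM in Sed.

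A T-like cluster of 62 cells without a name, chosen after its values had been seen, had Pdcd1, Tbc1d4, Nrn1, Rgs16 and Cd4 among its leading genes and held 38 and 15 cells in Ex, against 3 and 6 in Sed. In its Ex cells Pdcd1 was at 175 and 384 CPM, Lag3 at 109 and 258 CPM and Tox at 193 and 431 CPM.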
